A study of Ovis aries with 10 samples.

Results

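The 6 host genes described here each gave rise to many circular RNAs (circRNAs) in sheep muscle samples: AGTPBP1, PICALM, DCAF6, VWA8, PREX2 and BRWD1. A circRNA is a transcript closed by a back-splice junction, in which a downstream splice site is joined to an upstream one, and it was counted here by the reads that cross that junction. The hosts were chosen by the number of circRNAs listed under their names, so that number and the shared ends, dominance and listing that go with it are given as a description. Their 98 circRNAs stood among 8721 listed in the series, and the 6 genes among 3436 hosts. AGTPBP1, PICALM and DCAF6 had 17 circRNAs each, PREX2 and BRWD1 had 16, and VWA8 had 15. Just inside that range MYO9A also had 15, and just outside it ARHGAP10, CEP112, MYBPC1, SOX6 and TUT4 had 14 each. Other hosts with at least 15 were TTN, NEB, ABCC9, DMD, SENP6, SYNE1 and UTRN.

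The study compared 5 libraries of small-tailed Han ewes after sham surgery (sham 1 to 5) with 5 after ovariectomy (ovariectomized 1 to 5), in order to study estrogen and muscle. Removal of the ovaries removes the main source of estrogen, and sham animals keep it. The labels name the back muscle longissimus dorsi as the tissue, but also primary myoblasts as the cell type and a culture in medium with serum, with an estradiol series. No library carries an estradiol dose, and whether muscle tissue or cells in culture gave the RNA cannot be read from the labels. Ages are not given. Nothing in the labels ties each library to an animal of its own, and the p-values then measure only the spread between these libraries.

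The libraries held from 35731 to 67061 junction reads, the most in ovariectomized 5, and listed from 2559 to 3543 circRNAs. The smallest count the table lists is 2 reads, and a library without an entry was taken as 0. Of 11 muscle fiber genes, 10 hosted circRNAs, with 23104 reads. Of 8 myoblast and satellite cell genes 3 did, and 907 of their 912 reads were from MET, while none of 5 proliferation, 5 fibroblast, 4 immune or 4 nerve genes did. Endothelial genes hosted circRNAs in 4 of 6 cases and adipocyte genes in 1 of 5. These are counts of hosts of circRNAs and do not measure expression. In bulk RNA, fewer cells of a type and less RNA per cell cannot be told apart.

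When a gene is back-spliced, an exon start that accepts the splice can be paired with several downstream exon ends, and the reverse. A gene with several usable starts and ends can therefore give a family of circRNAs that overlap or nest within each other. Circular molecules lack free ends and are known to outlast linear transcripts. The 6 hosts encode proteins of unrelated kinds. AGTPBP1 is an enzyme that trims glutamate chains from tubulin, and PICALM is an adaptor that helps clathrin coats assemble on membranes. DCAF6 is a substrate receptor of the CUL4-DDB1 ubiquitin ligase and a coactivator of nuclear receptors, and VWA8 is a mitochondrial protein of the AAA ATPase superfamily. PREX2 is an exchange factor that activates the small GTPase Rac, and BRWD1 is a chromatin protein with a bromodomain and WD repeats.

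The 17 circRNAs of PICALM were the most tightly knit family of the 6. They used 5 upstream ends and 9 downstream ends on chromosome 21, and all 17 shared an end with another circRNA of the gene. Of the 27 pairs of those ends that could close a circle, 17 were listed (63.0%). Of these, 7 circRNAs began at position 9084372 and ended at 7 different positions up to 9133265, and they held 58.2% of the PICALM junction reads. The 3 circRNAs that began at 9109048 held 20.1%. The whole family lay within 48.9 kb, and 63 of its 136 pairs of circRNAs were nested. The most abundant, novel_circ_0015339, ran from 9084372 to 9104905 over 5 deposited blocks. The longest, novel_circ_0015343, ran over the whole stretch of 48894 bp, and the shortest, novel_circ_0015352, over 2356 bp.

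AGTPBP1, on chromosome 2, shared ends mainly on the downstream side. Its 17 circRNAs used 10 upstream but only 6 downstream ends, and 16 of the 17 (94.1%) shared an end. The downstream end at 34051510 was used by 4 circRNAs with 75.9% of the reads, among them the leading novel_circ_0003578, which began at 34025877. The downstream end at 34081298 was used by 6 circRNAs with 20.3% of the reads. The same upstream position, 34025877, was thus joined to both of these ends, and the second pairing was the longest AGTPBP1 circRNA, novel_circ_0003581, with a span of 55422 bp. The shortest, novel_circ_0003606, spanned 713 bp before the same end at 34081298. The only circRNA with both ends unshared, novel_circ_0003610, was listed in 1 library with 2 reads.

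In DCAF6 and PREX2 each end was shared by few circRNAs, and the circles of DCAF6 overlapped in 1 stretch while those of PREX2 lay in 4. In DCAF6, on chromosome 1, 15 of 17 circRNAs (88.2%) shared an end, and no end was used by more than 3. Its busiest stretch lay at the downstream side, where the upstream ends 120331142 and 120333161 and the downstream ends 120334040 and 120342911 gave all 4 possible circles. These 4 were novel_circ_0000162, novel_circ_0000163, novel_circ_0000165 and novel_circ_0000166. With the outer end, novel_circ_0000163 and novel_circ_0000166 had 117 and 104 reads, and with the inner end the other pair had 64 and 50. In PREX2, on chromosome 9, 13 of 16 circRNAs (81.3%) shared an end, over 10 upstream and 14 downstream ends. No PREX2 end held more than 20.3% of the reads.

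BRWD1 and VWA8 lie on the minus strand, so their upstream ends have the higher coordinates. BRWD1, on chromosome 1, used 8 upstream ends and 14 downstream ends, the opposite imbalance to AGTPBP1, and 13 of its 16 circRNAs (81.3%) shared an end. Its 2 outermost upstream ends, 260093728 and 260090962, were used by 4 and 3 circRNAs and held 35.9% and 37.0% of the reads. The circRNAs of VWA8, on chromosome 10, were spread over 361 kb in 7 separate stretches, and 10 of 15 (66.7%) shared an end. A single stretch of VWA8 carried most of the signal, since the 3 circRNAs with the downstream end at 12308916 held 80.5% of the reads. PREX2 had 4 separate stretches, BRWD1 3, AGTPBP1 2, and PICALM and DCAF6 1 each.

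**Figure D1:**
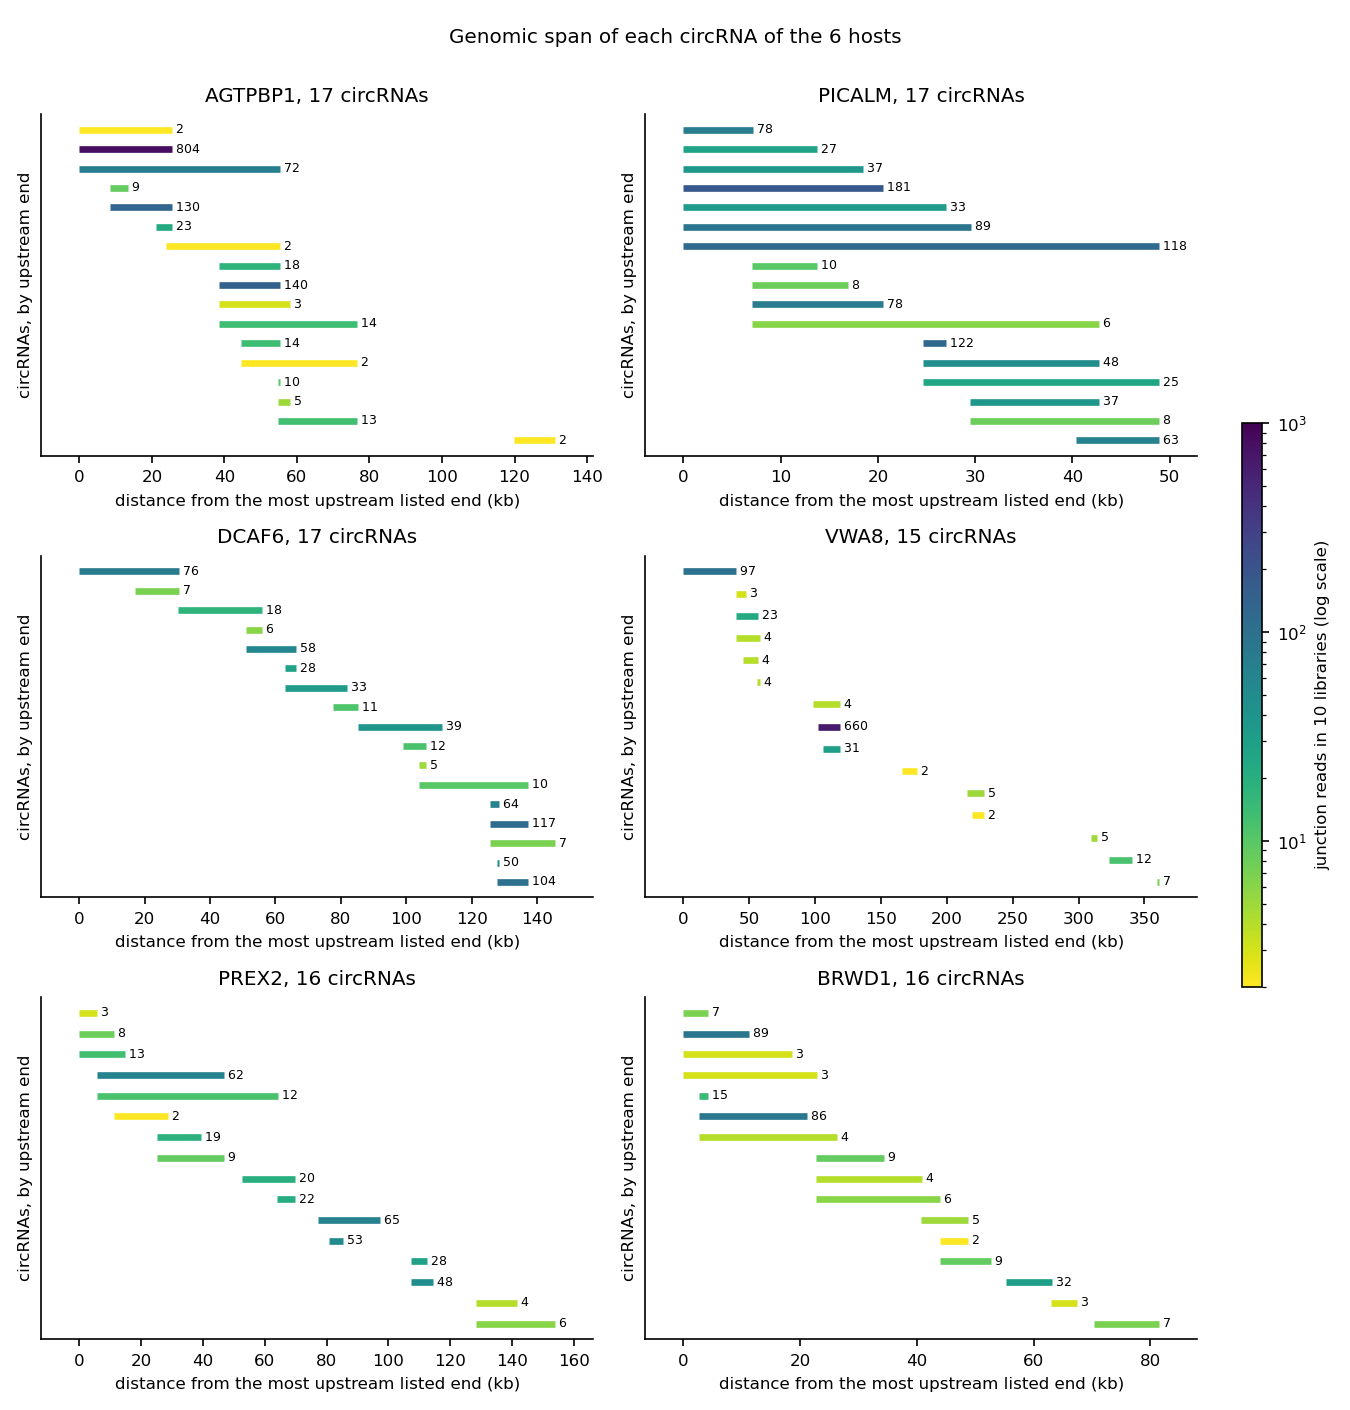
Genomic span of each of the 98 circRNAs, 1 bar per circRNA, against the distance in kb from the most upstream listed end of its host in the direction of transcription. Bar colour and the number beside a bar give junction reads over the 10 libraries (log colour scale). The PICALM panel shows 7 bars that begin at 1 position, the AGTPBP1 panel 6 bars that end at 1 position, and the VWA8 panel 7 stretches without overlap.

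Against the 8 other hosts with at least 15 circRNAs, PICALM and AGTPBP1 stood out by how often their circRNAs shared ends. The share of circRNAs that shared an end was 40.8% in TTN and 88.2% in SENP6, with a median of 70.5%. It was 66.7% to 100% in the 6 hosts described here, with a median of 84.7%. The share of possible pairs that were listed was 2.39% to 29.3% in the 8 hosts, below the 63.0% of PICALM and the 37.8% of AGTPBP1. The other 4 hosts had 18.6% (PREX2), 20.3% (VWA8), 22.4% (DCAF6) and 27.6% (BRWD1). The number of possible pairs grows with the number of ends, and TTN had 125 circRNAs, so these shares are given without a test. When circRNAs seen in a single library were left out, the share that had a common end was 100% in PICALM and AGTPBP1, 81.3% in DCAF6, 66.7% in PREX2, 62.5% in VWA8 and 55.6% in BRWD1. In the 8 other hosts it was then 40% to 81.8%, with a median of 52%, so only PICALM and AGTPBP1 lay above that range.

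Most of the circRNAs were classed as exonic by the first block deposited for them. The class was read from that block alone and does not describe the whole circRNA. The 7 classed as intronic, with 69 of the 4397 reads, were 4 of AGTPBP1, 2 of VWA8 and 1 of DCAF6. The median span from end to end was 13660.5 bp, against 7689 bp over all listed circRNAs, while the median spliced length was 301.5 bp against 291.0 bp. The deposited blocks, from which the spliced length is summed, reached both ends of the circRNA in 69 of 98 (70.4%), near the 68.8% of all listed circRNAs. Where they did not, the spliced length left out part of the circle. The AGTPBP1 circRNA novel_circ_0003581 was given 1 block of 68 bp for its 55422 bp, although it contains all 6 blocks of the 798 bp given for novel_circ_0003578. Of 152 nested pairs of exonic circRNAs in the 6 hosts, the outer circRNA had the shorter deposited spliced length in 67. The deposited spliced lengths of these hosts are therefore not used further.

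The 6 hosts divided by how evenly reads were spread over their circRNAs. In AGTPBP1 and VWA8 a single circRNA held most reads, and the same circRNA led in all 10 libraries. In PICALM, DCAF6, PREX2 and BRWD1 the leading circRNA changed from library to library. The effective number of circRNAs (the inverse of the summed squared read shares, which equals the number listed when all are equally abundant) was 1.67 in VWA8, 2.31 in AGTPBP1, 4.76 in BRWD1, 8.89 in PREX2, 9.35 in DCAF6 and 10.0 in PICALM. In the 8 other hosts with at least 15 circRNAs it was 1.12 to 7.43. Thus 17 circRNAs of PICALM stood for about 10.0 equally abundant ones, and 15 of VWA8 for fewer than 2.

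In AGTPBP1, novel_circ_0003578 had 62, 45, 35, 76 and 119 junction reads in sham 1 to 5 and 80, 60, 72, 130 and 125 in ovariectomized 1 to 5. It held 63.7% of the gene's 1263 reads. Its share was lowest in sham 3, at 46.1% of 76 reads (95% Wilson interval 35.3 to 57.2), and highest in sham 5, at 73.9% of 161 reads (66.6 to 80.1). The intervals, which cover counting error only, did not overlap between these libraries of the same group, the extremes of the 10. Next came novel_circ_0003600 with 140 reads in all 10 libraries, then novel_circ_0003586 with 130, novel_circ_0003581 with 72 and novel_circ_0003591 with 23.

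In VWA8, novel_circ_0010144 (12308916 to 12325707, 5 blocks) had 39, 66, 61, 64 and 94 reads in the sham libraries and 57, 68, 67, 82 and 62 in the ovariectomized ones. It held 76.5% of 863 reads. Its share was lowest in ovariectomized 2, at 63.6% (95% Wilson interval 54.1 to 72.1), and highest in sham 4, at 88.9% (79.6 to 94.3). The second, novel_circ_0010161, the longest of the gene at 40055 bp, had 97 reads and was not listed in sham 3. The other 13 VWA8 circRNAs had at most 31 reads each over the 10 libraries.

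PICALM had 4 circRNAs that were listed in every library: novel_circ_0015339 with 181 reads, novel_circ_0015352 with 122, novel_circ_0015343 with 118 and novel_circ_0015341 with 89. The first had 14, 9, 16, 17 and 17 reads in sham 1 to 5 and 16, 17, 16, 25 and 34 in ovariectomized 1 to 5, and it held 18.7% of the gene's 968 reads. It led alone in 4 libraries, all ovariectomized, novel_circ_0015352 led in 2, novel_circ_0015341 in 1, and 3 libraries had a tie. In DCAF6, novel_circ_0000163 had 2, 9, 9, 4 and 10 reads in the sham and 5, 16, 17, 17 and 28 in the ovariectomized libraries, or 18.1% of 645. It led in 3 libraries and novel_circ_0000166 in 4. The third DCAF6 circRNA listed in all 10 libraries was novel_circ_0000141, with 76 reads, and novel_circ_0000162 and novel_circ_0000147 had 64 and 58.

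PREX2 had the lowest pooled share of its most abundant circRNA among the 6, and no circRNA of it was listed in all 10 libraries. Its most abundant, novel_circ_0009739, had 7, 0, 2, 7 and 10 reads in the sham and 6, 5, 4, 0 and 24 in the ovariectomized libraries, or 17.4% of 374. It was close to novel_circ_0009724 with 62 reads, novel_circ_0009740 with 53 and novel_circ_0009744 with 48, and 6 different circRNAs led alone in at least 1 library. BRWD1 had a leading pair. Its novel_circ_0001169 had 0, 7, 5, 6 and 5 reads in the sham and 4, 9, 12, 11 and 30 in the ovariectomized libraries, and novel_circ_0001167 had 6, 7, 13, 5 and 6 and then 12, 6, 2, 6 and 23. They took 31.3% and 30.3% of 284 reads, and each led in 4 libraries. Next was novel_circ_0001156 with 32 reads in 5 libraries.

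**Figure D2:**
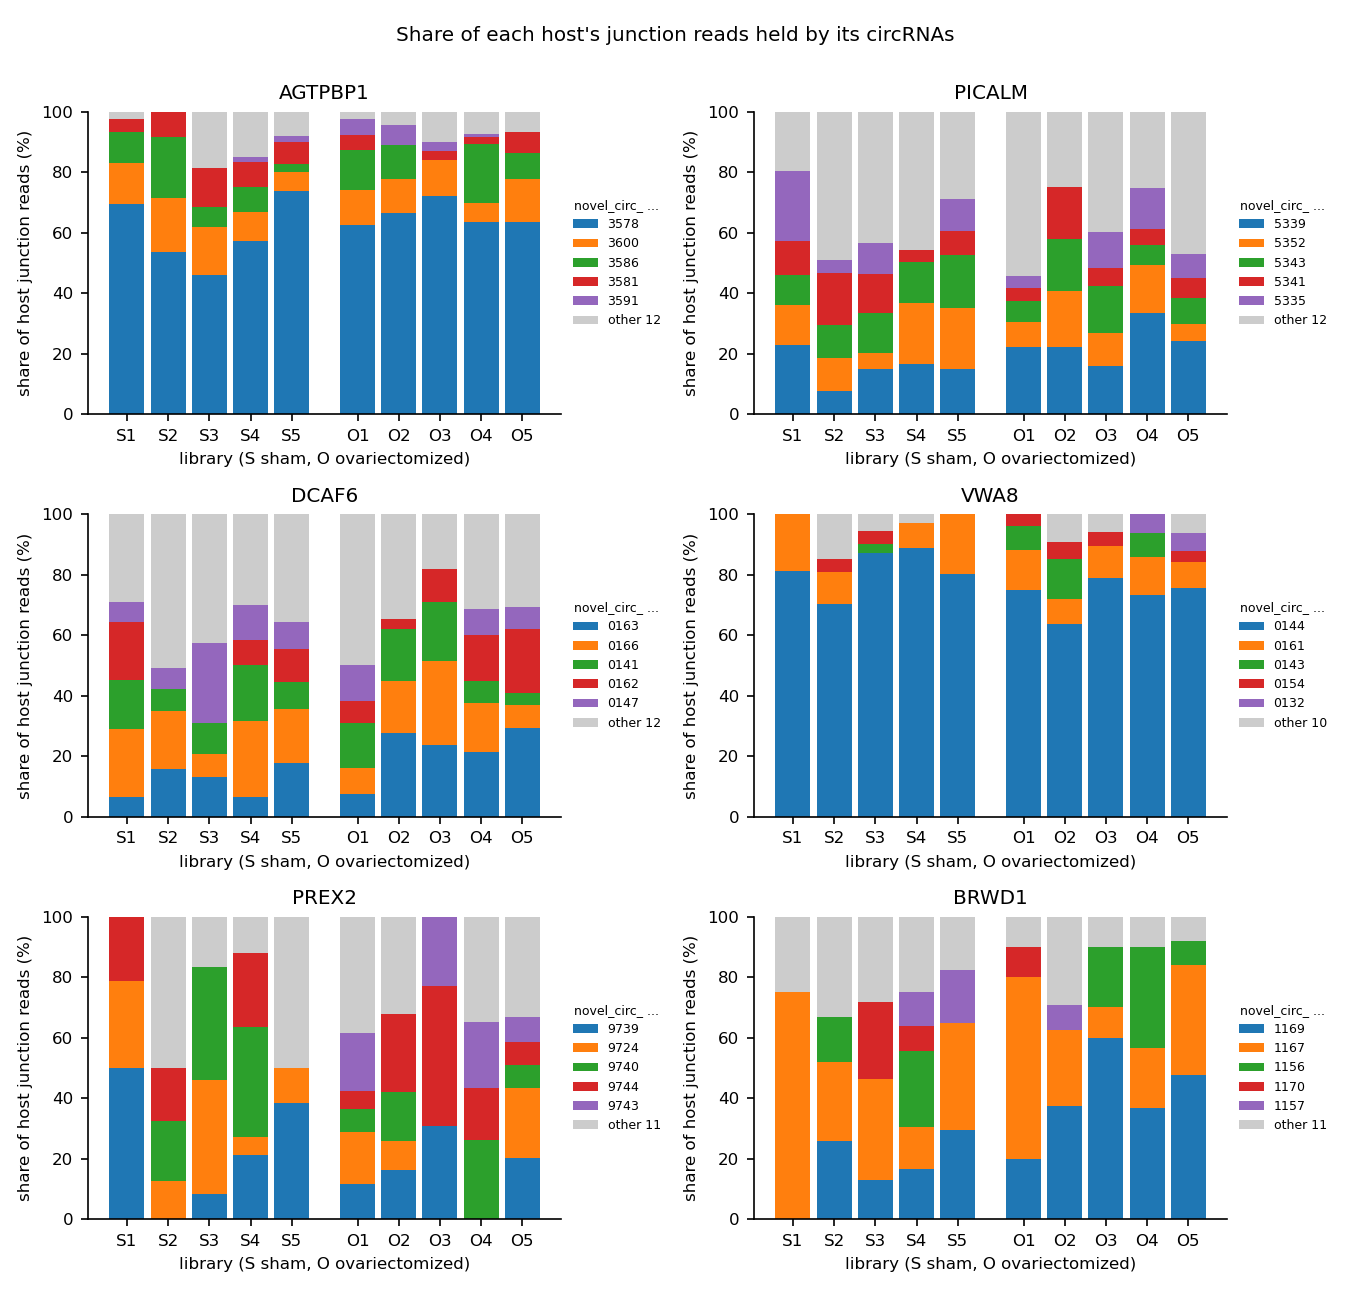
Share of each host's junction reads (%) held by its 5 most abundant circRNAs, coloured, and by all others, grey, in each library (S sham, O ovariectomized). The largest colour is the same in every bar of AGTPBP1 and VWA8, and it changes between bars in the other 4 hosts. Bars of PREX2 and BRWD1 rest on as few as 13 and 8 reads.

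Among 276 hosts with at least 3 circRNAs and at least 10 reads in each library, the median share of the most abundant circRNA was 64.6%. AGTPBP1 lay near that median, with 134 hosts lower, and VWA8 above it, with 173 hosts lower. PREX2 had the lowest share of all 276 hosts, DCAF6 had 1 host lower and PICALM 2. The lowest share a host can reach falls as its number of circRNAs rises, and the 6 hosts were chosen by that number. Low ranks among hosts with as few as 3 circRNAs therefore follow in part from the choice. In the 8 other hosts with at least 15 circRNAs the share was 26.3% to 94.5%, with a median of 43.0%. BRWD1 was not among the 276, since sham 1 had 8 BRWD1 reads, and 15 of them were lower than its 31.3%. The 6 hosts therefore ran from 17.4% to 76.5% at almost the same number of circRNAs.

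**Figure D3:**
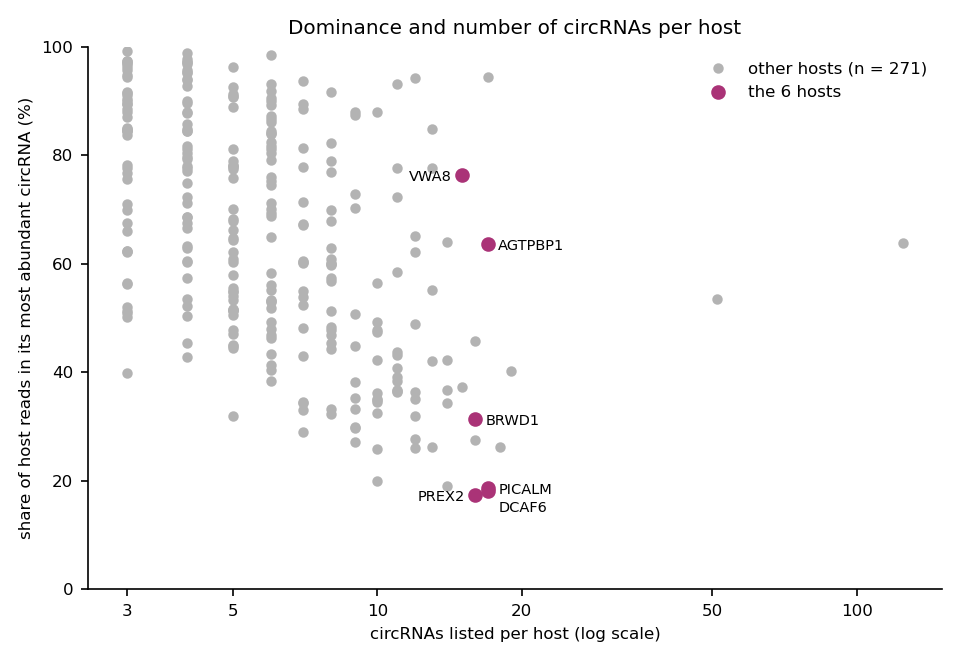
Share of host reads in the most abundant circRNA (%, 10 libraries pooled) against the number of circRNAs listed per host (log scale), for the 6 hosts and 271 others. PREX2, DCAF6 and PICALM lie at 17.4%, 18.1% and 18.7%, and AGTPBP1 and VWA8 at 63.7% and 76.5% with nearly the same number of circRNAs.

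Of the 98 circRNAs, 11 (11.2%) were listed in all 10 libraries, against 9.24% of all 8721, and 26 (26.5%) in a single library, against 37.5%. PICALM and DCAF6 were listed most evenly, and they also had the most reads per circRNA, with medians of 37 and 28 over the 10 libraries. The median was 16 in PREX2, 13 in AGTPBP1, 6.5 in BRWD1 and 5 in VWA8. A listing needs at least 2 reads in a library, and the part of read number in these counts was not tested. PICALM had 4 circRNAs in all libraries and 1 in a single library, and DCAF6 had 3 and 1. At the other end VWA8 had 1 in all libraries and 7 in a single one, and BRWD1 also 1 and 7. AGTPBP1 had 2 and 6, and PREX2 0 and 4. The circRNAs seen in a single library held few reads: 0.62% of reads in PICALM, 0.93% in DCAF6, 1.66% in AGTPBP1, 2.90% in VWA8, 4.81% in PREX2 and 9.51% in BRWD1. A single library listed 8 to 14 PICALM circRNAs, 7 to 12 of DCAF6, 4 to 9 of AGTPBP1, 3 to 10 of PREX2, 2 to 8 of BRWD1 and 2 to 7 of VWA8. No library held all the circRNAs of any of the 6 hosts.

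The number listed was set against depth by the number expected if each library had only as many reads of the host as the shallowest one. On that scale PICALM had a median of 10.9 circRNAs per library at 61 reads and DCAF6 8.90 at 31 reads. AGTPBP1 had 6.27 at 76 reads and VWA8 4.33 at 48 reads. PREX2 had 4.45 at 13 reads and BRWD1 3.46 at 8 reads. DCAF6 thus listed more circRNAs than AGTPBP1 at fewer reads.

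**Figure D4:**
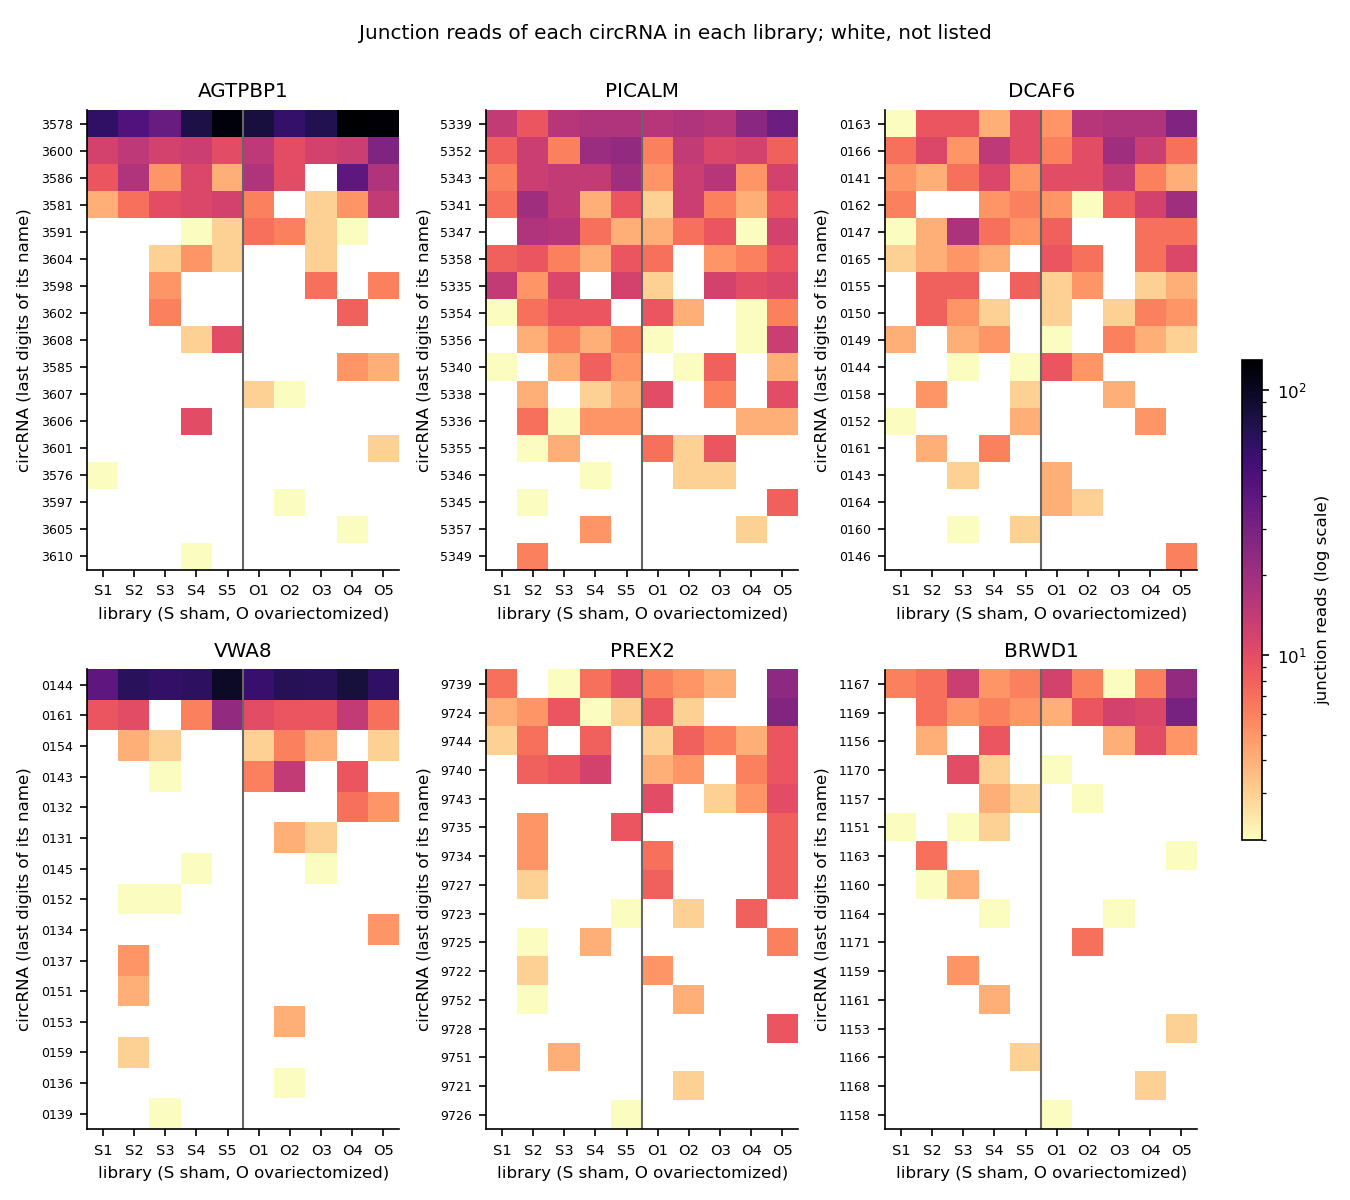
Junction reads of each of the 98 circRNAs (rows, by the last digits of the name) in each library (columns, S sham, O ovariectomized), on a log colour scale, with white where a circRNA was not listed. The PICALM and DCAF6 panels are filled in most rows, and the VWA8 panel has 2 filled rows above 13 sparse ones.

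A readout that did not enter the choice of hosts was the circular share, the junction reads divided by junction plus non-junction reads of the circRNAs listed in a library. The files do not define non-junction reads. They were read as those that lie at either end of the circRNA without crossing the back-splice. Reads at an end that several circRNAs share may be counted for each, so the share of a whole host is not independent of how many ends are shared. The median over 10 libraries was 12.8% in VWA8 (range 7.10 to 31.7) and 6.12% in AGTPBP1 (3.69 to 12.5), the hosts with 1 dominant circRNA. It was 3.44% in PREX2 (1.86 to 5.74), 1.94% in BRWD1 (1.54 to 5.12), 1.11% in PICALM (0.84 to 2.18) and 0.594% in DCAF6 (0.318 to 0.869). The ranges of VWA8 and AGTPBP1 lay above those of PICALM and DCAF6 without overlap. Over the 276 hosts the median was 9.81%, and 9 hosts were lower than DCAF6, 11 lower than PICALM and 165 lower than VWA8.

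Within a host the circular share also differed between circRNAs. In AGTPBP1 the leading novel_circ_0003578 had a median of 23.4% (range 18.1 to 45.8), while novel_circ_0003600, novel_circ_0003586 and novel_circ_0003581 had 5.04%, 4.09% and 3.62%. In VWA8 novel_circ_0010144 had 30.2% (15.2 to 43.1) and novel_circ_0010161 6.71%. The lowest library of novel_circ_0003578 lay above the highest of the other 3, which was 10.2%, while the ranges of the VWA8 circRNAs met at 15.2% and 15.9%. In PICALM the medians of the leading circRNAs were 1.94% for novel_circ_0015339, 1.91% for novel_circ_0015343, 1.5% for novel_circ_0015352 and 1.1% for novel_circ_0015341. In DCAF6 they were 0.97% for novel_circ_0000166, 0.89% for novel_circ_0000163 and 0.46% for novel_circ_0000141.

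The total circular output of the 6 hosts showed no difference between ovariectomized and sham libraries that passed the test. Junction reads were summed over all circRNAs of a host, scaled by trimmed mean of M values and tested with limma voom over 753 hosts with Benjamini-Hochberg adjustment at 0.05. The fit called 0 of the 6 and 0 of 753 (0%), with 45 of 753 (5.98%) and 0 of the 6 at an unadjusted p under 0.05. The groups did not overlap in 5 of 753 hosts (0.664%) and in 0 of the 6. All 6 hosts passed the filter on low counts.

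The total nearest to a difference was that of PICALM. Its normalized junction reads were 81.8, 134, 116, 101 and 115 in sham 1 to 5 and 74.9, 76.5, 108, 65.5 and 89.1 in ovariectomized 1 to 5. Of the 5 ovariectomized libraries, 4 lay under all sham libraries but sham 1, and ovariectomized 3 lay among the sham values. The sham mean was 109 ± 19.3 and the ovariectomized mean 82.8 ± 16.4 (SD, n = 5 each). The limma log2 fold change, ovariectomized over sham, was -0.41 ± 0.21 (SE) with an adjusted p of 0.759.

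PREX2 was the most variable total. Its normalized reads were 18.8, 45.3, 25.8, 32.3 and 26.1 in sham 1 to 5 and 54.1, 31.2, 13.9, 20.1 and 75.1 in ovariectomized 1 to 5. The ovariectomized libraries held both the lowest and the highest value of the 10. The limma log2 fold change was 0.25 ± 0.42 (SE), adjusted p 0.886, and -0.13 without ovariectomized 5, the library with the most reads. BRWD1 had a sham mean of 27.1 ± 12.9 and an ovariectomized mean of 26.5 ± 7.88 (SD, n = 5 each), with ovariectomized 5 at 40.1 and the other 4 of its group between 20.8 and 26.2. Its limma log2 fold change was 0.10 ± 0.36 (SE), adjusted p 0.942, so the means and the log2 scale differed in sign.

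The other 3 totals overlapped widely. AGTPBP1 had a sham mean of 118 ± 31.2 and an ovariectomized mean of 127 ± 33.4 (SD, n = 5 each), a limma log2 fold change of 0.12 ± 0.23 (SE), adjusted p 0.898. DCAF6 had 58.8 ± 11.7 and 67.3 ± 7.74, a limma log2 fold change of 0.19 ± 0.22 (SE), adjusted p 0.873. VWA8 had 86.8 ± 23.6 and 85.6 ± 21.4, a limma log2 fold change of -0.05 ± 0.25 (SE), adjusted p 0.957. With library totals as the only scaling the median log2 fold change of all hosts moved from -0.02 to 0.12 and that of VWA8 from -0.05 to 0.09. The sign of AGTPBP1, VWA8, PREX2 and BRWD1 turned when single libraries were left out, and the lowest adjusted limma p of the 6 hosts in any setting run was 0.714.

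**Figure D5:**
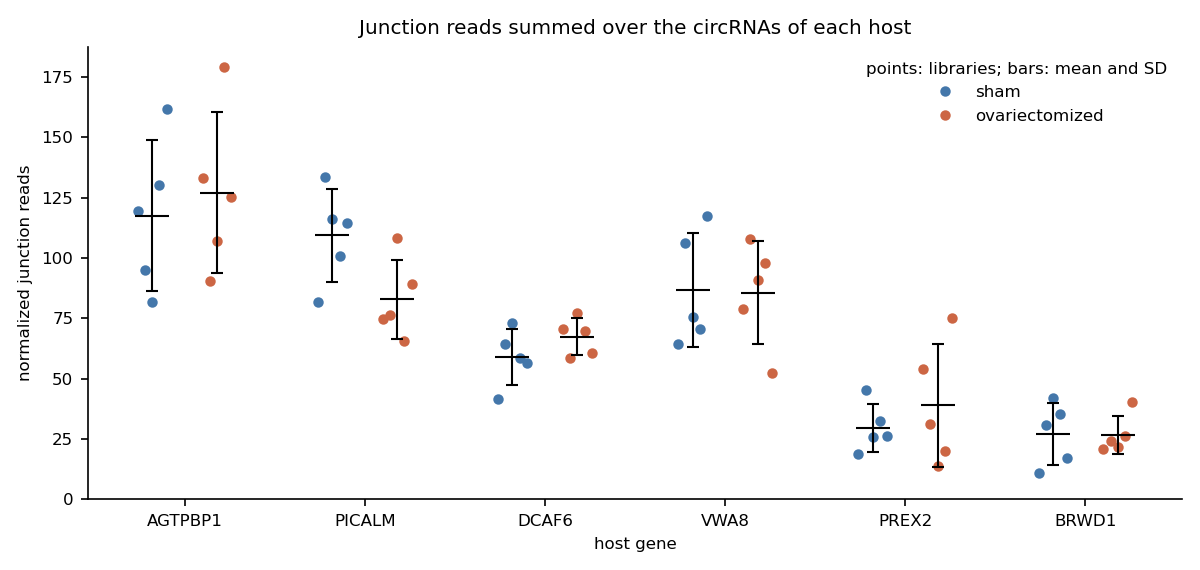
Normalized junction reads summed over the circRNAs of each host, 1 point per library, with horizontal bars for the mean and vertical bars for 1 SD (n = 5 per group). The sham and ovariectomized points overlap in all 6 hosts, and PICALM has means of 109 in sham and 82.8 in ovariectomized libraries.

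Of the single circRNAs, 10 of 98 passed the filter on low counts (at least 5 libraries with 10 scaled reads): 3 each of AGTPBP1 and PICALM, 2 each of DCAF6 and VWA8, and none of PREX2 or BRWD1. The limma voom fit over 738 circRNAs called 0 of the 10 and 0 of 738 (0%). At an unadjusted p under 0.05 there were 0 of the 10 and 42 of 738 (5.69%), and groups without overlap occurred in 0 of the 10 and 10 of 738 (1.36%). The log2 fold change was above 0 in 6 and below 0 in 4, with a median of 0.12, against -0.04 over all tested. The smallest adjusted p, 0.781, belonged to the PICALM circRNAs novel_circ_0015343 and novel_circ_0015352.

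In PICALM, the circRNAs did not all lie on the same side of 0. The longest, novel_circ_0015343, had 7.81, 15.6, 15.1, 13.8 and 20.2 normalized reads in sham 1 to 5 and 5.17, 13.2, 16.9, 4.33 and 7.44 in ovariectomized 1 to 5. Of the ovariectomized libraries, 3 lay under every sham library, and ovariectomized 2 and 3 lay among them. Its limma log2 fold change was -0.93 ± 0.46 (SE), adjusted p 0.781. The leading novel_circ_0015339, which shares the upstream end, had a sham mean of 16.04 ± 2.96 and an ovariectomized mean of 18.7 ± 2.47 (SD, n = 5 each), a limma log2 fold change of 0.23 ± 0.29 (SE), adjusted p 0.915. The shortest, novel_circ_0015352, had a limma log2 fold change of -0.91 ± 0.50 (SE), adjusted p 0.781.

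The leading circRNA of DCAF6, novel_circ_0000163, had 2.60, 10.8, 9.70, 3.94 and 10.1 normalized reads in sham 1 to 5 and 5.17, 16.3, 17.9, 14.7 and 17.4 in ovariectomized 1 to 5. All ovariectomized libraries but the first lay above all sham libraries. The limma log2 fold change was 0.95 ± 0.81 (SE), with an adjusted p of 0.847. This circRNA passed the filter on low counts largely through ovariectomized libraries, and in only 5 of the 10 fits that left out a library. Its fold change is therefore no support for a difference. Its neighbour with the same downstream end, novel_circ_0000166, had 10.5 ± 3.67 and 10.62 ± 6.52 (SD, n = 5 each). On the log2 scale limma gave novel_circ_0000166 a fold change of -0.42 ± 0.56 (SE), adjusted p 0.923, opposite in sign to the means. The leading circRNAs of AGTPBP1 and VWA8 had limma log2 fold changes of 0.23 ± 0.28 and -0.24 ± 0.25 (SE), with adjusted p-values of 0.915 and 0.861.

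Whether a circRNA moved apart from the others of its host was tested with limma's diffSplice on circRNAs listed in at least 5 libraries. Of 565 hosts 0 passed (0%) and 29 (5.13%) had an unadjusted Simes p under 0.05. All 6 hosts entered, PICALM with 13 circRNAs, DCAF6 with 9, AGTPBP1 with 5, PREX2 with 4, and VWA8 and BRWD1 with 3 each. Each of the 6 had an adjusted Simes p of 0.994, and the smallest unadjusted one was 0.388, in BRWD1. With the stricter filter of the circRNA fit PICALM entered with 3 circRNAs and had an unadjusted Simes p of 0.0359, which did not pass after adjustment in limma (0.884). Of their 37 circRNAs none was called or had an unadjusted p under 0.05, against 88 of 1606 (5.48%). The nearest were novel_circ_0000147 of DCAF6, with a log2 difference from the rest of its host of -1.86 (adjusted limma p 0.848), and novel_circ_0015339 of PICALM, with 0.90 (adjusted limma p 0.848).

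The share of the leading circRNA was compared by two-sided exact permutation tests over all 252 relabellings, in which the smallest p that could be reached is 0.00794. After Benjamini-Hochberg adjustment 0 of 276 hosts (0%) and 0 of the 5 described here that were among them passed. With 276 hosts, at least 44 would have to reach the smallest p before any could pass, so the absence of calls says little. At an unadjusted exact p under 0.05 there were 11 of 276 (3.99%) and 0 of the 5. In PICALM the share was 23.0, 7.63, 14.8, 16.5 and 14.9% in sham 1 to 5 and 22.2, 22.4, 15.8, 33.3 and 24.3% in ovariectomized 1 to 5. All ovariectomized libraries but replicate 3 lay above 4 of the sham libraries, and sham 1 lay among them. The means were 15.4% ± 5.46 and 23.6% ± 6.30 (SD, n = 5 each), with an exact p of 0.0556, adjusted 0.939.

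In DCAF6 the share of novel_circ_0000163 was 6.45, 15.8, 13.2, 6.67 and 17.9% in sham 1 to 5 and 7.35, 27.6, 23.6, 21.3 and 29.5% in ovariectomized 1 to 5. Of the ovariectomized libraries, replicate 1 alone lay within the sham range. The means were 12.0% ± 5.23 and 21.9% ± 8.73 (SD, n = 5 each), with an exact p of 0.0714, adjusted 0.939. The choice of novel_circ_0000163 as leading rested on pooled reads, and 83 of its 117 came from ovariectomized libraries. In the sham libraries novel_circ_0000166 had more reads, 48 against 34. The exact p is therefore no support for a difference. With novel_circ_0000166, which led in more libraries, in place of novel_circ_0000163 the difference was -2.93 percentage points. In VWA8 the means were 81.6% ± 7.34 and 73.2% ± 5.78 (SD, n = 5 each; exact p 0.0952, adjusted 0.974), in AGTPBP1 60.1% ± 11.5 and 65.6% ± 3.91 (exact p 0.341, adjusted 0.988), and in PREX2 23.6% ± 20.7 and 15.8% ± 11.3 (exact p 0.484, adjusted 0.988).

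BRWD1 was outside the tested family, so its shares have no adjusted p and are given as a description. Its novel_circ_0001169 was taken as the leading circRNA on pooled reads, 89 against 86 for novel_circ_0001167, and 66 of the 89 came from ovariectomized libraries. Without ovariectomized 5 the order was the other way, with 59 against 63. The share of novel_circ_0001169 was 0, 25.9, 12.8, 16.7 and 29.4% in sham 1 to 5 and 20, 37.5, 60, 36.7 and 47.6% in ovariectomized 1 to 5. Of the ovariectomized libraries, 4 lay above every sham library, and ovariectomized 1 lay within the sham range. The means were 17.0% ± 11.6 and 40.4% ± 14.8 (SD, n = 5 each). For novel_circ_0001167 they were 36.7% ± 23.0 and 30.3% ± 19.2, lower in the ovariectomized group. The unadjusted exact permutation p for novel_circ_0001169 was 0.0238. It is no support for a difference, since that circRNA was picked on the same reads. Without single libraries the difference of 23.4 percentage points in novel_circ_0001169 ran from 18.5 to 28.5. The libraries behind these shares had 8 to 63 BRWD1 reads, and 12 of 20 reads in ovariectomized 3 have a 95% Wilson interval of 38.7 to 78.1%. At the level of usage the same circRNA had a log2 difference of 1.27 with an adjusted limma p of 0.987.

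The number of circRNAs listed and the circular share gave no call either. By exact permutation tests 0 of 276 hosts (0%) passed for the number listed, with 2 (0.725%) at an unadjusted p under 0.05, and 0 (0%) for the circular share, with 18 (6.52%). None of the 5 hosts among them had an unadjusted exact p under 0.05. Here too at least 44 of the 276 hosts would have to reach the smallest p before any could pass, so the absence of calls says little. Listed numbers were 11.6 ± 2.30 and 11 ± 1.41 in PICALM, 9.4 ± 1.14 and 9.4 ± 1.95 in DCAF6, and 3.8 ± 2.17 and 5.0 ± 1.22 in VWA8 (sham and ovariectomized means, SD, n = 5 each). The circular share was 9.00% ± 4.00 (sham) and 6.11% ± 1.02 (ovariectomized) for AGTPBP1 (exact p 0.151, adjusted 0.654), and 2.94% ± 0.828 and 3.93% ± 1.1 for PREX2 (exact p 0.151, adjusted 0.654). For VWA8 it was 14.7% ± 10.1 and 14.5% ± 4.98, a difference of -0.21 points that was 7.66 points for the leading circRNA alone.

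Gaps of several libraries between the groups were rare among the 98 circRNAs, as over all circRNAs. A difference of at least 3 libraries was found in 2 of 98, against 354 of 8721 (4.06%), and of at least 4 in 1 of 98, against 61 of 8721 (0.699%). The first was novel_circ_0009743 of PREX2 (chromosome 9, 45148711 to 45153698), with 10, 0, 3, 5 and 10 reads in ovariectomized 1 to 5 and no entry in the 5 sham libraries. This is a description, since Fisher's exact test with 5 against 5 libraries, added after the data were seen, cannot pass adjustment over 8721 circRNAs (smallest adjusted p 1). It shares its upstream end with novel_circ_0009744, which was listed in 3 sham and 5 ovariectomized libraries. The authors' deposited table gave novel_circ_0009743 a mean of 4.71 normalized reads in the ovariectomized and 0 in the sham group, p 0.00941 and adjusted p 0.966. It was the only one of the 98 with a p under 0.05 in the authors' deposited table, and none passed after the authors' adjustment. The same table marks novel_circ_0009743, alone among the 98, as significant. The second was novel_circ_0001151 of BRWD1, with 3 sham and 0 ovariectomized libraries and 7 reads. Of the 98, 19 (19.4%) were not listed in any sham library and 19 in any ovariectomized library, against 2042 (23.4%) and 1972 (22.6%) of the 8721.

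The genes that act with each host were followed through the circRNAs they host. For AGTPBP1, 3 of 18 tubulin glutamylation and tyrosination genes hosted circRNAs, led by the detyrosinating enzyme gene VASH2 (110 reads) and the polyglutamylase gene TTLL7 (98 reads in 12 circRNAs), and none passed the filter. For PICALM, 12 of 30 clathrin endocytosis genes did, and the 2 tested in the limma fit were FCHO2, which starts clathrin pits, with a log2 fold change of -0.65 ± 0.43 (SE), and the adaptor gene EPS15, with -0.47 ± 0.75, both not called. For DCAF6, 9 of 24 genes of CUL4-DDB1 ligases and related receptors did, and COP1 and AMBRA1 had limma log2 fold changes of 0.16 ± 0.33 and -0.59 ± 0.43 (SE). For VWA8, 4 of 11 AAA ATPase and protease genes did, and the ribosome assembly gene MDN1 and the mitochondrial protease gene YME1L1 had -0.11 ± 0.36 and 0.26 ± 0.44.

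The lists around PREX2 and BRWD1 hosted more circRNAs. Of 25 genes of PI3K signaling and Rac exchange 20 were hosts, and 6 were tested, 2 above and 4 below 0, with a median limma log2 fold change of -0.38. The Rac exchange factor genes DOCK1 and DOCK4 had the most reads, with 0.38 ± 0.22 and 0.47 ± 0.33 (SE). Of 33 bromodomain and WD repeat genes 19 were hosts, and 5 were tested, 1 above and 4 below 0, with a median of -0.49. ASH1L, a histone methyltransferase gene, had -0.03 ± 0.30, and ATAD2B, a bromodomain ATPase gene, had -1.02 ± 0.31 (SE, adjusted limma p 0.697). Over all 753 hosts the median was -0.02. No host of any of these lists was called by limma, and 3 of the 5 tested bromodomain hosts had an unadjusted p under 0.05, against 45 of all 753 (5.98%). Besides ATAD2B these were BAZ2B (0.73 ± 0.32) and ZMYND11 (-1.22 ± 0.39), which are named after their values were seen. So is ARHGEF7 of the Rac exchange list, with -0.92 ± 0.35 (SE) and an unadjusted p of 0.0170 (adjusted limma p 0.713).

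The totals of the 6 hosts were compared in pattern with 747 other tested hosts by Pearson's r of log2 normalized reads (pseudocount 0.5) over the 10 libraries. Most alike were PLCD4 to AGTPBP1 (r 0.82), MAP2K4 to PICALM (0.89), MGA to DCAF6 (0.89), PTBP3 to VWA8 (0.85), PHTF1 to PREX2 (0.78) and PITPNM2 to BRWD1 (0.89). Next were DNAJC13 and CHD1L for AGTPBP1, METAP1 and ZNF236 for PICALM, ZZZ3 and TLK1 for DCAF6, UBA6 and ITGA7 for VWA8, DPP8 for PREX2, and ZBTB25 and TLK2 for BRWD1. These values were the highest of 747 over points that share libraries and depth, and they are a description only.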

How the data were processed

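Junction and non-junction reads of each circRNA are deposited as packed lists of whole numbers with the sample names, per the file headers. They were unpacked for the 10 libraries. The lists also hold 10 names that match none of the series' samples, which were left out, and a library without an entry was entered as 0. The other deposited table gives the authors' group means as a normalized signal, with a deposited log2 fold change and the authors' p-value, raw and adjusted. It also holds a mark of significance. The submitters' processing notes name HISAT2. Which build, annotation and circRNA caller were used is not given in the sources used here. Libraries were made with a directional kit, per the labels' protocols. Positions follow the files, with each start counted from 1, and chromosome numbers were taken through the host genes, all 6 of which were found in the RefSeq table of sheep genes.

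The plan was a count model for plain count columns. Because the counts are packed, limma voom was used (limma 3.58.1, statmod 1.5.0, R 4.3.3), with trimmed mean of M values (30% and 5% trimmed), group as the only term, robust variances and Benjamini-Hochberg adjustment at 0.05. A circRNA or host was tested with at least 10 reads, scaled to the median library, in at least 5 libraries and a total of at least 15. For circRNA usage the filter was 2 reads in 5 libraries. Shares, listed numbers and circular shares were compared by exact permutation tests in hosts with at least 3 circRNAs and 10 reads in each library. These tests were computed with numpy 2.4.6 and checked against scipy 1.17.1 on a simulated host. Normalized reads are junction reads over the scaled library size, set relative to its geometric mean. Precision is set by 8 to 205 junction reads per host and library. The scripts were tested on simulated data. Alternatives covered scaling, filters, a pseudocount of 1, a replicate block, end tolerance, the choice of leading circRNA and leaving out each library. A test of listing by group was added after the data were seen.

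The 6 hosts, the gene lists and the tests were chosen with earlier results of these data known. Named circRNAs are the up to 5 with the most reads per host, those listed in all libraries, those past a threshold, the smallest p, and the shortest and longest spans. The 2 hosts with the most reads are named per gene list, and up to 3 hosts most alike in pattern, of which 1 is not reported here.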

Additional observations from a re-analysis of the deposited data

Results flagged for a closer look

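Of 68 groups of 5 values tested for a library far from the others of its group, 6 had one, where chance gives about 1 in 20. Ovariectomized 5 stood above the rest of its group 3 times in BRWD1. Its normalized junction reads were 40.1 against 20.8 to 26.2, its listed circRNAs 5 against 4 in each of the other libraries, and its circular share 5.12% against 1.92 to 2.25%. Where all other libraries tie, the rule flags a difference of any size. The flag on listed circRNAs therefore carries little weight, and the rate of 1 in 20 does not hold for it. This library also had the most junction reads of all, 67061, and the part of depth in these values was not tested. In PICALM, sham 2 stood below the rest of its group in the circular share, at 0.842% against 1.1 to 1.21%, and in novel_circ_0015339, at 10.8 normalized reads against 16.7 to 18.2. In DCAF6, ovariectomized 1 stood below the rest of its group in novel_circ_0000163, at 5.17 normalized reads against 14.7 to 17.9.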

How the results depend on the processing

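None of the 6 hosts, and none of their 10 circRNAs tested in the main fit, passed an adjusted threshold in any setting. Their adjusted p-values, from limma and exact permutation tests, ran from 0.365 upward. The other circRNAs of the 6 hosts were not followed through the alternative settings, so whether any of them was called there is not known. Over the whole table, limma called 4 circRNAs and 2 hosts with the filter at 2 reads in 5 libraries, and 30 and 7 with no filter beyond 1 read. Leaving out single libraries gave 0 to 1 hosts and 0 to 1 hosts in the usage test: sham 4, ovariectomized 2 and ovariectomized 5 each gave 1 host, and ovariectomized 2 gave 1 in usage. The replicate numbers share only a number: same-numbered libraries correlated by -0.116 to 0.189 and 1 of 5 correlated best with its own number. With a replicate block limma called 3 circRNAs, 1 host and 2 hosts in usage, and the sign turned for novel_circ_0003600 (-0.00372), novel_circ_0000166 (0.000376), novel_circ_0010161 (-0.54) and BRWD1 (-0.0147).

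Signs also turned for novel_circ_0003586, to -0.0306 without a filter and -0.0565 in limma trend with a pseudocount of 1, for novel_circ_0003600, to -0.0501 in limma trend, for VWA8, to 0.0892 with library totals alone, for the share of the leading DCAF6 circRNA, to -2.93 points with the circRNA that led in most libraries, and for the circular share of VWA8, to 7.66 points for the leading circRNA alone. For the leading circRNA alone, the circular share was 3.58% in sham and 6.38% in ovariectomized libraries in PREX2 (8 libraries listed it) and 1.67% and 4.43% in BRWD1 (9 libraries), not tested. With circRNAs of at least 2 libraries, shared ends went from 94.1% to 100% in AGTPBP1, 88.2% to 81.3% in DCAF6, 66.7% to 62.5% in VWA8, 81.3% to 66.7% in PREX2 and 81.3% to 55.6% in BRWD1. Without single libraries the log2 fold change ran from -0.00834 to 0.25 for AGTPBP1, -0.14 to 0.15 for VWA8, -0.13 to 0.50 for PREX2 and -0.15 to 0.28 for BRWD1. It ran from -0.16 to 0.90 for novel_circ_0003586, -0.11 to 0.13 for novel_circ_0003600, -0.62 to 0.0924 for novel_circ_0000166 and -0.65 to 0.76 for novel_circ_0010161, each of the last 2 over the 5 of 10 fits in which it passed the filter. The difference in listed AGTPBP1 circRNAs ran from -0.4 to 0.85, and that in the circular share from -2.10 to 4.05 points in VWA8 and -0.0523 to 0.284 in PICALM. The causes were not tested. Totals of 8 to 118 reads per library limit what can be seen in PREX2 and BRWD1, and the median standard error of a host's log2 fold change was 0.39.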
